A study of Mus musculus with 8 samples.

Results

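The Utx-cKO peak list of H3K27me3, the trimethyl mark on lysine 27 of histone H3, held 17795 peaks that shared no base with any peak of the Ezh2-Cko, Jmjd3-Cko or Wild type lists. They were 17795 of the 49405 Utx-cKO peaks, or 36.0% (95% Wilson interval 35.6 to 36.4), and of the 138214 peaks in the 4 lists together. A further 7991 Utx-cKO peaks (16.2%) met an Ezh2-Cko or Jmjd3-Cko peak but no wild-type peak, and 23619 (47.8%) overlapped a wild-type peak. The peaks found in Utx-cKO alone covered 12.3 Mb, against 8.59 Mb for those shared with another knockout and 53.4 Mb for those overlapping wild type. Because the members were chosen by the absence of peaks elsewhere, their strength and their absence from the other lists are descriptions of the choice and carry no test.

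The chromatin came from cultured mouse chondrocytes, the cells that make cartilage matrix, of 4 genotypes: Utx-cKO, Ezh2-Cko, Jmjd3-Cko and wild type, where cKO stands for conditional deletion of the named gene. Each genotype had 1 library precipitated with an anti-H3K27me3 antibody and 1 input library, 8 libraries in all, so no difference between genotypes has a replicate check. The labels used here give no Cre driver, no age, no treatment and no number of animals behind a library. Utx-cKO and Jmjd3-Cko library titles share a prefix that Ezh2-Cko and wild-type titles do not, so whatever the prefix stands for cannot be told apart from genotype, except between the Utx-cKO and Jmjd3-Cko libraries. In bulk chromatin, a stronger mark in each cell and more cells carrying it cannot be told apart.

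H3K27me3 is laid down by Polycomb repressive complex 2, whose catalytic subunit is Ezh2, and is a mark of genes held silent during development. Utx, the product of the X-linked gene Kdm6a, and Jmjd3, the product of Kdm6b, are demethylases that remove it. In other tissues the mark is known for covering the CpG-rich starts of regulators of other lineages. Wild-type peaks here lay within 2 kb of an end of 15 of 48 such factors, but of 29 of 30 housekeeping genes. Among all protein-coding genes the share was 62.3%. The reason for this distribution was not tested, and a wild-type peak is not read here as a silenced gene.

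Some of the members covered the start of a protein-coding gene. RefSeq gives a window from 250 bases before to 50 bases after the start (GRCm38.p6) for 17492 of the 21887 protein-coding genes placed on the autosomes, X and Y, 21263 windows in all. A member overlapped 259 of these windows, belonging to 240 genes. The 4 windows below are shown as examples of CpG-poor and CpG-rich starts, with each CG in capitals, 5′ to 3′ on the gene's strand. Slitrk1 encodes a neuronal membrane protein with leucine-rich repeats, Cnpy1 a Canopy-family protein linked to FGF signalling in zebrafish, Chp2 a calcineurin B homologue, and Egfl7 a factor secreted by endothelial cells.
Slitrk1 (chr14:108914190-108914489, minus strand): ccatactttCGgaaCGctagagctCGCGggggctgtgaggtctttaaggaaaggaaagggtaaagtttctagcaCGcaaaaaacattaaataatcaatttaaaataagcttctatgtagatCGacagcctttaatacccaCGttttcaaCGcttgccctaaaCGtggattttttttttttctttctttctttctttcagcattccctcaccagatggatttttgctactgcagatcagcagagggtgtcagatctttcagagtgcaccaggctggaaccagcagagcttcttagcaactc
Cnpy1 (chr5:28210119-28210418, minus strand): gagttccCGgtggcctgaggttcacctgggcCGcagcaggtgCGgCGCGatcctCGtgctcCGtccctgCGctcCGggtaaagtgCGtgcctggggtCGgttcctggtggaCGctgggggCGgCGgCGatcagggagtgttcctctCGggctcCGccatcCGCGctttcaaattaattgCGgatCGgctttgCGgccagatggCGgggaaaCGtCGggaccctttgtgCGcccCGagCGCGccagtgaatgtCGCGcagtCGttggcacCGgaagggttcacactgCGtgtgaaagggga
Chp2 (chr7:122219246-122219545, plus strand): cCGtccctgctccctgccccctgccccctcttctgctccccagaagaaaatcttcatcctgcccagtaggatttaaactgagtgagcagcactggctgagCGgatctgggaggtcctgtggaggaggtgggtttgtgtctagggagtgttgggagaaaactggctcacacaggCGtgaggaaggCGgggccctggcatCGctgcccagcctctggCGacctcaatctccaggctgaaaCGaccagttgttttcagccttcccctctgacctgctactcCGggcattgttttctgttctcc
Egfl7 (chr2:26580833-26581132, plus strand): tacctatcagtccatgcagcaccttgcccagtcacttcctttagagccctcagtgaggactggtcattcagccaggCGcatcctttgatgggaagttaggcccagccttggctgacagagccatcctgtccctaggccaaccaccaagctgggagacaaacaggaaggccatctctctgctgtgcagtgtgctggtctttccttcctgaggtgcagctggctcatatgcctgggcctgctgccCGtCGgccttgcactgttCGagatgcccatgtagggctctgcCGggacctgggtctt

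The Slitrk1 window held 9 CG pairs, and its member, 3210 bp long with a fold enrichment of 3.63, lay 1840 kb from the nearest wild-type peak and 958 kb from the nearest Ezh2-Cko peak. The Cnpy1 window held 34 CG pairs at an observed-to-expected ratio of 1.05, under a member of 1138 bp with a fold enrichment of 3.49. The Chp2 window held 8, at a ratio of 0.311, under a member of 650 bp with a fold enrichment of 3.32. The Egfl7 window held 5, at a ratio of 0.197, and shared 231 of its 300 bases with a member of 553 bp whose fold enrichment was 3.36. These 4 starts, chosen after their values were seen, ran from CpG-poor to CpG-rich. Their fold enrichments all lay above the upper quartile of the members, 2.88, so these examples cannot show whether strength goes with CpG content.

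Over the 259 start windows touched by a member, the median number of CG pairs was 6 and the median observed-to-expected ratio was 0.285. A ratio of at least 0.6, the usual sign of a CpG island, was found in 9.65% of them (6.62 to 13.9). Windows under Utx-cKO peaks shared with another knockout but not wild type numbered 623 and reached that ratio in 29.5%. The 12230 windows under a wild-type peak had a median of 22 CG pairs and reached it in 77.2%, against 47.7% of all windows and 4.39% of the 6105 windows with no peak of any list within 5 kb. The windows with no peak had a median of 2 CG pairs and a median ratio of 0.169. The starts marked in Utx-cKO alone thus stood between the unmarked starts and those marked in wild type on each of these measures. Because a member can share no base with a wild-type peak, this order is in part bound to the rule. The classes were also not matched on fold enrichment. For the 198 member windows with no wild-type peak within 5 kb the share was 11.1% (7.45 to 16.2). The letters TATAAA, searched on either strand with no regard to other motifs, stood in 9.65% of the member windows, 5.92% of wild-type-marked windows, 25.9% of windows without a peak and 12.6% of all windows.

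Members touched 18 of the 1005 microRNA hairpins in RefSeq (1.79%), while covering 12.3 Mb of chromosomes that span 2601 Mb. Wild-type peaks touched 151 hairpins (15.0%), with 40.5 Mb covered. The mature sequences below are shown for the hairpins with known vascular or broad roles, Mir126a and Mir126b within Egfl7 and Mir26a-2 within Ctdsp2, with the seed (bases 2 to 8) in capitals.
mmu-miR-126a-3p: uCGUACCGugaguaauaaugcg
mmu-miR-126b-3p: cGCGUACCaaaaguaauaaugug
mmu-miR-126b-5p: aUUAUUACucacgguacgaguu
mmu-miR-26a-5p: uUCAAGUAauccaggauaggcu

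These 4 mature microRNAs have 4 different seeds. The Mir126a and Mir126b hairpins lay under the same member inside Egfl7, 2922 bp long with a fold enrichment of 2.74 and 3777 bp from the nearest wild-type peak. This is a separate peak from that at the Egfl7 start. The Mir26a-2 hairpin lay under a member of 1776 bp with a fold enrichment of 3.13, 1544 bp from a wild-type peak.

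The members were weak, short peaks. Fold enrichment, the authors' ratio of a peak's pileup to the local input background, had a median of 2.71 among them (quartiles 2.59 and 2.88), against 2.89 for Utx-cKO peaks shared with another knockout and 5.12 for those overlapping a wild-type peak. It was under 3 in 15121 members (85.0%) and reached 4 in 38, of 14455 Utx-cKO peaks that strong. The median length was 524 bp (quartiles 328 and 870), against 795 bp and 1710 bp in the same 2 classes. Only 538 members (3.02%) reached 2 kb and 9 reached 5 kb. The authors' q was 0.001 or less for 2666 members (15.0%), with a median −log10 q of 2.15 among all members, and the median pileup was 13.25 where the lowest in the list was 12. At the edge of the rule, 187 members lay within 100 bp of another list's peak, with a median length of 433 bp and fold enrichment of 2.70. The 387 Utx-cKO peaks that shared at most 100 bases with other lists had medians of 440 bp and 2.72.

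**Figure D1:**
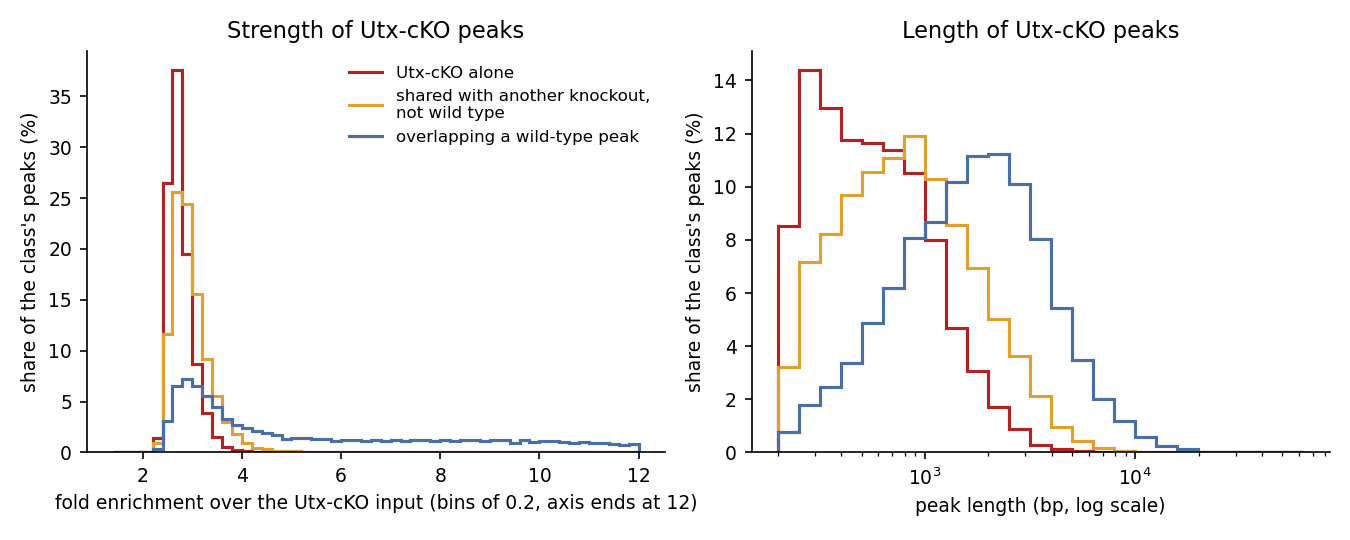
Share of Utx-cKO peaks by fold enrichment (left, bins of 0.2) and by length in bp (right, log scale) for peaks in Utx-cKO alone, peaks shared with another knockout but not wild type, and peaks overlapping a wild-type peak. Members pile up near a fold enrichment of 2.71 and a length of 524 bp, while peaks overlapping wild type extend far to the right on both axes.

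The Utx-cKO list differed from the others in the local background recovered at its peaks. From a peak's pileup and fold enrichment, the local background it was set against can be recovered, and the lowest value in each list is close to what its depth spread evenly over the genome gives (4.12 against 4.10 fragments per base in Utx-cKO). In the Utx-cKO list 38.0% of peaks stood within 1% of that lowest value, against 8.78% in Ezh2-Cko, 5.41% in Jmjd3-Cko and 8.64% in wild type. The share was 51.2% among the members, 40.3% among peaks shared with another knockout and 27.3% among those overlapping wild type. At the 19577 wild-type peaks found in all 4 lists, the median background was 1.03 times the lowest in Utx-cKO, 1.34 times in Ezh2-Cko, 1.60 times in Jmjd3-Cko and 1.80 times in wild type, so the recovered background rose least in Utx-cKO at the same sites. The part of this in the number of members was not tested. The members with a background above the lowest by more than 1%, a subset chosen after seeing the data, numbered 8681. Of the ChIP fragments left by the authors, 34359111 were in Utx-cKO, 34786292 in Ezh2-Cko, 25655346 in Jmjd3-Cko and 29222251 in wild type, and with only as many of the strongest Utx-cKO peaks as wild type had, 3704 members were left.

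The other lists had far fewer peaks of their own. Peaks found in 1 list alone made up 36.0% of the Utx-cKO list, against 11.2% of the Ezh2-Cko list (3771), 6.21% of the Jmjd3-Cko list (1677) and 8.20% of the wild-type list (2301). Those of the Ezh2-Cko, Jmjd3-Cko and wild-type lists had median fold enrichments of 2.57, 2.81 and 2.73, near the 2.71 of the members, and were somewhat shorter, with medians of 401, 392 and 376 bp. The lists differ in depth and in length, so these shares compare libraries.

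Most members lay inside genes. Their centres fell within 2 kb of an end of a protein-coding gene in 10.9% of cases (10.4 to 11.3), elsewhere inside a gene in 57.1% (56.4 to 57.8) and outside genes in 32.1% (31.4 to 32.7). These 3 kinds of sequence make up 5.68%, 36.5% and 57.8% of the chromosomes, so members were more frequent near and inside genes than bases are. Utx-cKO peaks overlapping wild type were at gene ends in 48.7% of cases. That contrast was found only among the stronger peaks. At fold enrichment from 2.5 to 3, the share at gene ends was 10.8% for members (10.3 to 11.3), 12.1% for peaks shared with another knockout and 8.18% for peaks overlapping wild type (7.35 to 9.10). At 3.5 to 4 it was 14.2% for members (10.3 to 19.4) and 24.2% for peaks overlapping wild type (22.3 to 26.1). At 4 or more it was 15.8% of the 38 members (7.44 to 30.4) and 71.9% of peaks overlapping wild type (71.2 to 72.7). Peaks found in 1 other list alone were likewise mostly inside genes, at 56.5% for Ezh2-Cko, 62.1% for Jmjd3-Cko and 60.4% for wild type, and at gene ends in 9.60%, 6.56% and 5.48%.

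**Figure D2:**
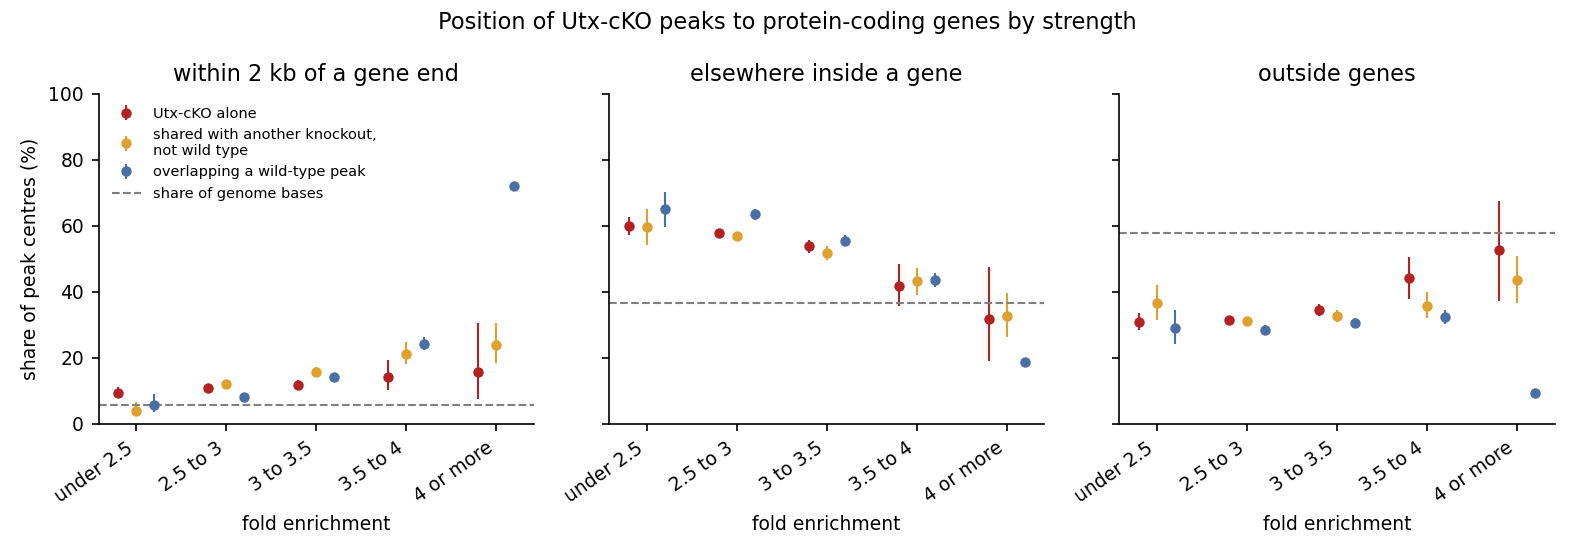
Share of peak centres (y axis, %) at gene ends (within 2 kb), in the rest of protein-coding genes and outside genes, by the peak's fold enrichment, with 95% Wilson intervals; dashed lines give the share of genome bases. At fold enrichment from 2.5 to 3, 10.8% of members and 8.18% of peaks overlapping wild type are at gene ends. Among stronger peaks the order is reversed, with 14.2% and 24.2% at 3.5 to 4 and 15.8% and 71.9% at 4 or more.

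At gene ends the members sat mostly at the 3′ end. Among those whose nearest gene has a known strand, 405 were at the start and 1096 at the 3′ end, so 27.0% were at the start (24.8 to 29.3), against 44.9% of peaks shared with another knockout and 91.4% of peaks overlapping wild type. Among peaks with fold enrichment from 2.5 to 3 the shares were 24.7% (22.3 to 27.2), 34.9% (30.6 to 39.5) and 44.0% (38.0 to 50.2) for the same 3 classes, so the value for peaks overlapping wild type dropped most. Since 62.3% of all genes had a wild-type peak at an end, and a peak that meets it cannot be a member, this share is bound to the rule. At genes with no wild-type peak within 5 kb most members at an end were at the start, 219 of 336 (65.2%, 59.9 to 70.1). That share was still below the 243 of 312 for peaks shared with another knockout (77.9%, 73.0 to 82.1). Over all ends with known strand, to be set beside the 27.0% of members, 90 of 287 peaks of the Ezh2-Cko list alone were at the start (31.4%, 26.3 to 36.9). For Jmjd3-Cko alone it was 38 of 83 (45.8%) and for wild type alone 42 of 98 (42.9%). Peaks of each list alone were thus also more often at the 3′ end, and the Ezh2-Cko interval overlaps that of the members.

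Inside genes, the members were spread over the whole body, with 54.0% (52.9 to 55.1) past the midpoint towards the 3′ end, against 49.4% of peaks shared with another knockout and 37.5% of peaks overlapping wild type. In genes with no wild-type peak within 5 kb of an end the share past the midpoint was 58.4% for members (54.7 to 62.0) and 49.7% for peaks shared with another knockout (44.2 to 55.2). Over all inside peaks with known strand, to be set beside the 54.0% of members, the share was 47.9% for peaks of the Ezh2-Cko list alone, 37.6% for Jmjd3-Cko alone and 43.3% for wild type alone. Of the members inside genes, 87.5% lay in a gene with a wild-type peak at an end, while 74.7% of all gene-inside bases belong to such genes. Of the 5704 members outside protein-coding genes, 20.3% lay inside a long non-coding RNA gene. The median distance of those outside to the nearest coding gene was 18.5 kb, and 753 (13.2%) lay more than 100 kb away.

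Members lay nearer to wild-type peaks than genome bases do on the scale of 10 kb. The median distance to the nearest wild-type peak was 11.6 kb (quartiles 4.48 and 28.7). Within 1 kb lay 1.83% of members and 3.67% of genome bases, and within 10 kb 46.0% of members (45.3 to 46.7) and 17.5% of bases. Both base shares include the wild-type peaks themselves, where by the rule no member can lie. At the far end 4.89% were more than 100 kb away. Members at gene ends were nearest, at a median of 7.21 kb, then those inside genes at 10.6 kb, and those outside at 16.1 kb. Peaks shared with another knockout had nearly the same distances, with a median of 11.0 kb and 47.6% within 10 kb. To the nearest peak of any of the other 3 lists the median was 6.49 kb, and 62.4% of members were within 10 kb, against 65.4%, 62.4% and 60.1% for the peaks of Ezh2-Cko alone, Jmjd3-Cko alone and wild type alone.

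**Figure D3:**
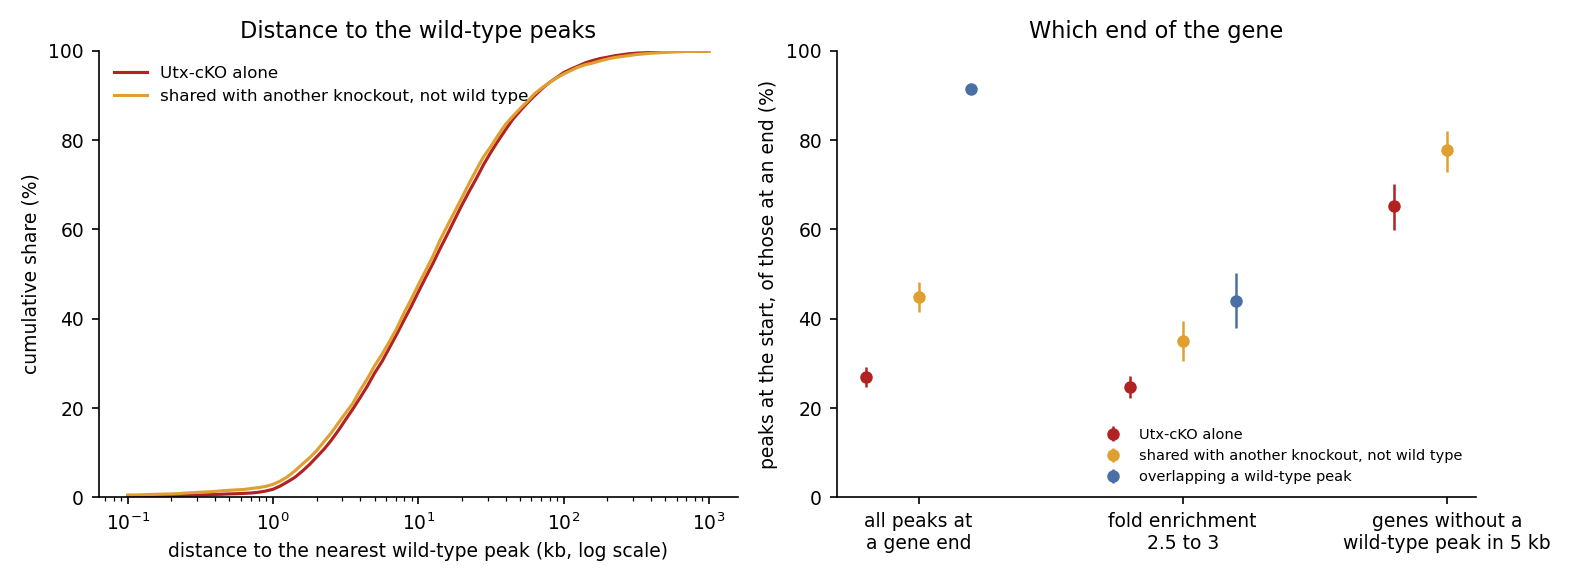
Left, cumulative share of peaks by distance to the nearest wild-type peak (kb, log scale). Right, share of peaks at the gene start among those at a gene end with known strand, with 95% Wilson intervals, for all peaks, for fold enrichment from 2.5 to 3, and at genes with no such wild-type peak in 5 kb. The distance curves nearly coincide, with medians of 11.6 and 11.0 kb. The share of members at the start is 27.0% over all ends and 65.2% at genes without a wild-type peak.

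A member lay within 2 kb of an end of 2398 protein-coding genes, which is 11.0% of the 21887. Of these genes 1712 (71.4%) had a wild-type peak at an end as well. In 507, or 2.32% of all genes, no wild-type peak lay within 5 kb, and in 506 the ends held a member and no other peak of any list within 2 kb. A member touched the body of 5670 genes (25.9%), and 80.6% of those had a wild-type peak at an end, where 62.3% of all genes did. Body counts followed gene length: among genes with a wild-type peak at an end, a member touched 12.1% of those under 10 kb and 62.2% of those over 200 kb. At the same lengths without a wild-type peak the shares were 4.24% and 50.6%.

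The 12 strongest members at gene ends were short, from 225 to 733 bp, and lay at very different distances from other peaks. The highest fold enrichment, 6.72, belonged to a peak of 231 bp inside Srp54b, which encodes a subunit of the signal recognition particle. It lay 74.5 kb from the nearest wild-type peak. Srp54a, Srp54b and Srp54c stand side by side on chromosome 12, and copies so alike can share reads, so the placement is uncertain. Cfap54, a gene of the cilium and sperm flagellum, followed at 4.59 (380 bp, 29.7 kb from wild type). A peak of 733 bp at 4.34 covered an end of Lrrtm3, a synaptic adhesion gene nested in Ctnna3, 1.58 kb from a wild-type peak. Boll, a germ-cell RNA-binding gene, had 4.33, the phosphatase gene Dusp18 4.25, with a Jmjd3-Cko peak 0.97 kb away, and the sperm surface gene Adam2 4.13. The other 6 were Gm8439, a predicted gene with no role given here, at 4.09 and 0.748 kb from an Ezh2-Cko peak, Rtl9, a retrotransposon-derived gene on X, at 3.89, the polarity cadherin Celsr3 at 3.87, the galectin Lgals7 at 3.87, the mitotic activator Cdc20 at 3.84 and the potassium channel Kcnh6 at 3.80. The peaks at Celsr3, Cdc20 and Lgals7 lay 4.52, 2.25 and 1.22 kb from a wild-type peak.

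The longest members were of ordinary strength and mostly inside genes. Gas6, which encodes a ligand of the TAM receptor kinases, held the longest, 12708 bp across chr8:13464633-13477340 at a fold enrichment of 2.78. It lay 12.3 kb from the nearest wild-type peak but 1.43 kb from an Ezh2-Cko peak. Rnf123, a ubiquitin ligase gene, held 6683 bp at 2.84, and Myh9, the heavy chain of a non-muscle myosin, 6024 bp at 2.89. A member of 5719 bp at 2.86 lay outside genes, 53.4 kb from an end of Cebpb, a transcription factor gene. The nuclear lamina gene Lmnb2 held 5521 bp at 2.71, the cartilage collagen gene Col27a1 5256 bp at 2.92, the DNA repair gene Fancc 5079 bp at 2.81 and the G protein subunit gene Gng7 5073 bp at 3.05.

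Among 48 transcription factors that direct other lineages, 14 had a member at an end (29.2%, 18.2 to 43.2) where 11.0% of all genes did, and in 12 of them no wild-type peak lay within 5 kb. Their wild-type marking was low, at 15 of 48 (31.2%) where 62.3% of all genes were marked. T, the brachyury gene of early mesoderm, had a member of 263 bp at 3.29. Sox18, a vascular regulator, had 1086 bp at 3.20, Nkx2-5, a heart regulator, 598 bp at 3.15, and Neurod1, a neuronal factor, 315 bp at 3.10. The member at T lay 0.274 kb from the start, but those at Nkx2-5 and Neurod1 lay 0.363 and 1.305 kb from the 3′ end. No strand was given for Sox18. A member at an end of these factors was therefore not always at a start. The Sox18 member lay 7.77 kb from the nearest wild-type peak, and those at T, Nkx2-5 and Neurod1 lay 61.4, 44.7 and 24.9 kb away. The members at 12 of the 14 genes had a local background within 1% of the list's lowest, so 2 of the 48 were left when such peaks were set aside. Of all 21887 genes 1071 were left there, so in that setting the factors did not stand above all genes. With as many Utx-cKO peaks as wild type had, 4 of the 48 were left and 578 of all genes. The share of the factors was still the higher one in that setting, but it rests on 4 genes. The much smaller sets of peaks found in another list alone marked 0 of the 48 for Ezh2-Cko, 2 for Jmjd3-Cko and 0 for wild type, where they marked 2.07%, 0.644% and 0.685% of all genes.

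Tissue genes foreign to cartilage differed among themselves, with muscle and fat genes above the 11.0% of all genes and blood genes below it. Of 18 muscle genes 6 had a member at an end (33.3%). In 5 of them no wild-type peak was found within 5 kb, and 2 of the 18 were marked in wild type. Chrna1, a subunit of the muscle acetylcholine receptor, had a fold enrichment of 3.13, Cdh15, the muscle cadherin, 3.06, Des, the muscle intermediate filament desmin, 2.94, and Mymk, the fusion factor myomaker, 2.74. These Chrna1 and Des peaks lay 1.97 and 1.70 kb from the 3′ end. A weaker member of 1142 bp at 2.67 covered the Des start, and the Cdh15 member covered its start. Of 14 fat genes 4 had a member. Adipoq, encoding adiponectin, carried 1 of 2921 bp at 3.46, 9.90 kb from the nearest wild-type peak, and Fabp4, a fatty acid carrier, 1 of 1490 bp at 3.19, 121 kb away. Slc2a4, an insulin-responsive glucose transporter, had 2.96, and Plin1, of the lipid droplet coat, 2.63. Of 16 endothelial genes 3 had a member, with Egfl7 at 3.36 first, then Sox18 and Esam, an endothelial adhesion gene, at 2.90. Of 20 blood genes only Cd8a, a T cell coreceptor gene, had 1, at 2.53. With lists this short, counting error spans a wide range, and 1 of 20 cannot be set apart from 11.0%. When members at the lowest background were set aside, 2 muscle and 1 fat gene were left, beside 1071 of all 21887 genes.

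Cartilage genes were marked about as often as all genes. Of 28 genes for chondrocyte matrix and regulators 3 had a member at an end (10.7%), where 25 had a wild-type peak (89.3%). These were Comp, an oligomeric matrix protein gene, with a peak of 4680 bp at 2.73, Col9a2 at 2.66 and Col9a1 at 2.65, the last 2 encoding chains of collagen IX, and wild-type peaks marked all 3. Sox9, the master regulator of cartilage, and Col2a1, its main collagen, had peaks in all 4 lists and no member. Of 28 genes for hypertrophy and bone formation 6 had a member (21.4%). Pth1r, the parathyroid hormone receptor, had 3.56, Mepe, a bone matrix protein, 3.48 at 67.0 kb from wild type, and Sost, the Wnt inhibitor of bone, 2.82. Of 20 tendon and joint genes only Gdf5, a joint morphogen, had a member at an end, at 2.56.

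Among signalling genes, 8 of 47 in the Wnt pathway had a member at an end (17.0%), 4 of them without a wild-type peak within 5 kb. The ligands Wnt3a, Wnt9a and Wnt3 had fold enrichments of 2.93, 2.84 and 2.74, and the transcriptional regulator Tcf7l1 2.74. In the TGF-beta and BMP pathway 5 of 42 had 1 (11.9%), each with a wild-type peak within 5 kb: the ligands Nodal at 3.39, Bmp4 at 2.87 and Tgfb1 at 2.81 and the antagonist Lefty2 at 2.64 were the strongest. In the hedgehog pathway only Disp2, related to the exporter of the ligand, had a member at an end (3.67), but a member touched the body of 10 of 16 genes, where 25.9% of all genes were touched and the list's median gene length was 45.5 kb. Of 30 genes for matrix degradation and inflammation 6 had a member at an end, led by the cytokines Lif at 3.10 and Tnf at 2.90, then Nfkb1, a subunit of NF-kappaB, at 2.55 and the chemokine Cxcl2 at 2.55.

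Genes active in every cell gave mixed counts. Among 30 housekeeping genes 2 had a member, B2m at 2.78 and Rab7 at 2.54, while 29 had a wild-type peak at an end. Proteasome subunits had 10 of 51 (19.6%), led by Psmc5 at 3.21, a subunit of the regulatory particle. None of 14 genes encoding PRC2 subunits or demethylases and none of 9 cell cycle inhibitors had a member at an end, and wild-type peaks marked all of both lists. With lists this short and 11.0% of all genes marked, a count of 0 says little. Over the body, members touched 4 of the 14, near the 25.9% of all genes. Kdm6a, the gene deleted in Utx-cKO, held 0 members and had 4 peaks in Utx-cKO, 4 in Ezh2-Cko, 4 in Jmjd3-Cko and 3 in wild type. Peaks of a histone mark do not show whether a gene is deleted or expressed. Of 30 genes of synapse and neuron, whose median length was 805 kb, 3 had a member at an end and 15 over the body. Shank3 and Shank2, both encoding scaffolds of the synapse, had fold enrichments of 3.05 and 2.59.

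**Figure D4:**
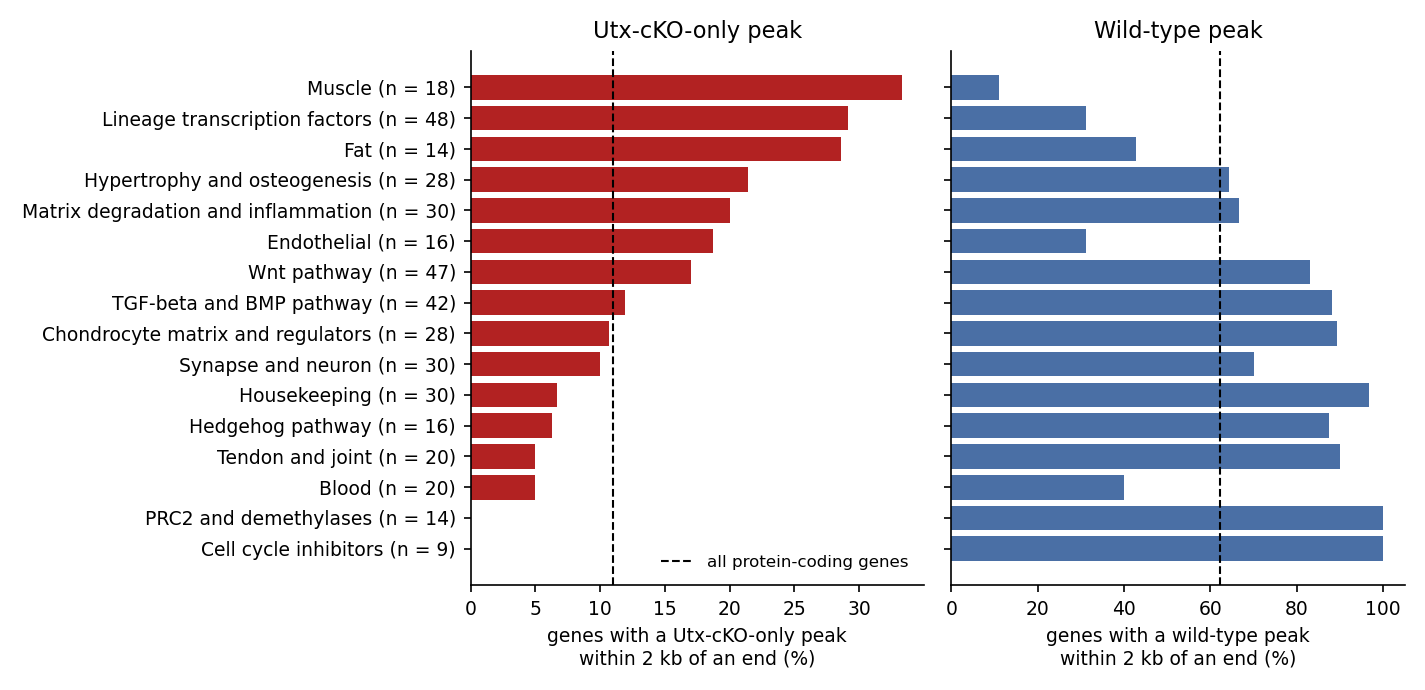
Share of the genes of each list (n in brackets) with a Utx-cKO-only peak (left) and with a wild-type peak (right) within 2 kb of an end; dashed lines give the share of all protein-coding genes, 11.0% and 62.3%. Muscle, lineage factor and fat lists are highest for members at 33.3%, 29.2% and 28.6% and below the line for wild type.

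Gene families grouped by symbol differed as widely. Of 1110 olfactory receptor genes 2 had a member at an end, Olfr1414 at 2.82 and Olfr71 at 2.51, and none of 355 vomeronasal receptors, 71 defensins or 38 taste receptors did. These families also had few wild-type peaks, at 7, 3, 0 and 1 genes. Zinc finger genes of the Zfp series had the opposite pattern of wild-type marking, at 84.9%, and still only 17 of 397 (4.28%) had a member, with Zfp870 at 3.49 and Zfp46 at 3.09 the strongest. Of 34 clustered histone genes none had a member and 30 had a wild-type peak. Of 91 ribosomal protein genes 8 had a member at an end, with Rps24 at 2.99 and Rpl28 at 2.92 the strongest, and 84 had a wild-type peak.

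Developmental families lay on either side of the 11.0% of all genes. T-box genes had 5 of 16 with a member at an end (31.2%), T at 3.29 and the limb factor Tbx4 at 2.76 being the strongest. Wnt ligands had 6 of 19 (31.6%), and semaphorins and plexins, guidance ligands and their receptors, 7 of 29 (24.1%), led by Sema4a at 3.10. Fox genes had 8 of 44 (18.2%), led by Foxi2 at 3.48, 127 kb from the nearest wild-type peak. Solute carriers had 59 of 375 (15.7%), with the mitochondrial iron carrier gene Slc25a28 at 3.77 the strongest, and collagens 7 of 44 (15.9%), with Col6a6 at 3.18 the strongest. Hox genes had only 2 of 39, Hoxc12 at 3.19 and Hoxc4 at 2.82, while 29 had a wild-type peak, Fgf ligands and receptors 1 of 27 and LIM homeobox genes 1 of 12. Families with other roles were as high, with phosphodiesterases at 6 of 26 (23.1%) and ABC transporters at 9 of 50 (18.0%). With so few genes in most families, counting error alone spans a wide range.

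Over gene bodies, families of long genes led. A member touched 18 of 29 semaphorins and plexins, 16 of 26 calcium channels, 16 of 26 phosphodiesterases, 13 of 22 ephrins and Eph receptors and 24 of 44 collagens, against 25.9% of all genes. Their median gene lengths were 39.8, 104, 106, 27.8 and 114 kb. The Zfp genes, at a median of 18.0 kb, were touched in 13.9%. Contactins and their relatives, neuronal adhesion genes with a median length of 401 kb, were touched in 5 of 13.

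Members gathered in chains. With neighbours joined over gaps of up to 10 kb, 7997 members (44.9%, 44.2 to 45.7) stood in chains of 2 or more, 9798 were single, and 1031 (5.79%) stood in 178 chains of 5 or more. The median gap between neighbours was 27.7 kb, where even spacing over the chromosomes would give 146 kb. Even spacing is not random placement, for which no value was computed. Wild-type peaks, which were more numerous, had a median gap of 25.4 kb. Peaks of Ezh2-Cko alone, Jmjd3-Cko alone and wild type alone stood in chains in 8.43%, 6.62% and 7.52% of cases, but these sets are several times smaller, and chains need numbers: the 3704 members left with as many Utx-cKO peaks as wild type had were in chains in 12.9%. At a gap of 3 kb the share of all members in chains was 19.9%.

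The 6 chains named by the number of members, the last of them tied with 2 others of 9, lay along single genes or small groups. Pmepa1, a target and inhibitor of TGF-beta signalling, had 12 members over 62.1 kb, with fold enrichments from 2.46 to 2.94 and 1 wild-type peak in the span. Banp, which encodes a DNA-binding nuclear matrix protein, had 12 over 69.8 kb, also with 1 wild-type peak. Col5a1, encoding a chain of the fibrillar collagen V, had 10 over 39.9 kb, and Gse1, encoding a coiled-coil protein, 10 over 39.5 kb, both with no wild-type peak between. A chain of 10 over 46.0 kb ran across Ssc5d, a scavenger receptor gene, and the kinase genes Sbk2 and Sbk3. Ube2v1, of the ubiquitin-conjugating enzyme variants, had 9 over 28.0 kb at a median fold enrichment of 3.06, the highest of the 6, and no wild-type peak.

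Counted over whole genes, Gse1 held most, with 35 members in 353 kb beside 15 wild-type peaks. Prdm16, the brown fat and cardiac regulator, held 24 in 321 kb with 1 wild-type peak, Msi2, an RNA-binding stem cell factor, 21 with 20 wild-type peaks, and Col5a1 20 with 4. Per length, Col5a1 had 13.1 members per 100 kb, Galnt2, an O-glycosylation enzyme gene, 14.0, Gse1 9.92 and Prdm16 7.47. In all, 458 genes held 5 or more members each and 3444 members together, and 91 held 10 or more. The genes of this paragraph were chosen by their number of members.

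On the scale of 1 Mb, members were concentrated in a small share of the genome. Of 2621 windows 817 (31.2%) had none, and the 262 fullest windows held 45.6% of the members. The fullest window, chr10 from 80 to 81 Mb, had 70 members, 79 wild-type peaks and 54 genes, Lmnb2 among them. Across windows, members went with wild-type peaks (Spearman correlation 0.852, 2621 windows) more closely than with genes (0.651). The windows share their libraries and their gene content, and neighbouring windows are alike, so these values describe the map only.

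The X chromosome had few members. It carried 79 of its 664 Utx-cKO peaks as members (11.9%, 9.65 to 14.6), or 0.463 per Mb, against 17715 of 48730 on autosomes (36.4%, 35.9 to 36.8), or 7.20 per Mb. No autosome came near: they ranged from 29.5% on chromosome 13 to 39.1% on chromosome 12, and from 4.18 per Mb on chromosome 3 to 12.9 per Mb on chromosome 11. Utx-cKO peaks overlapping wild type were also sparser on X, at 3.09 per Mb against 9.38 on autosomes. Weak peaks were fewer on X in every list, with fold enrichment under 3 in 17.8% of X-linked against 49.4% of autosomal peaks in Utx-cKO, 17.9% against 48.5% in Ezh2-Cko, 10.3% against 32.0% in Jmjd3-Cko and 17.7% against 40.1% in wild type. Peaks of 1 list alone were likewise a smaller share on X in Ezh2-Cko (6.12% against 11.3% on autosomes) and wild type (3.72% against 8.28%), and nearer to each other in Jmjd3-Cko (4.45% against 6.25%). The sex of the animals is not in the labels, and its part, like that of read depth on X, was not tested. Chromosome Y had 1 member of 4 Utx-cKO peaks, and unplaced scaffolds had none of 7.

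**Figure D5:**
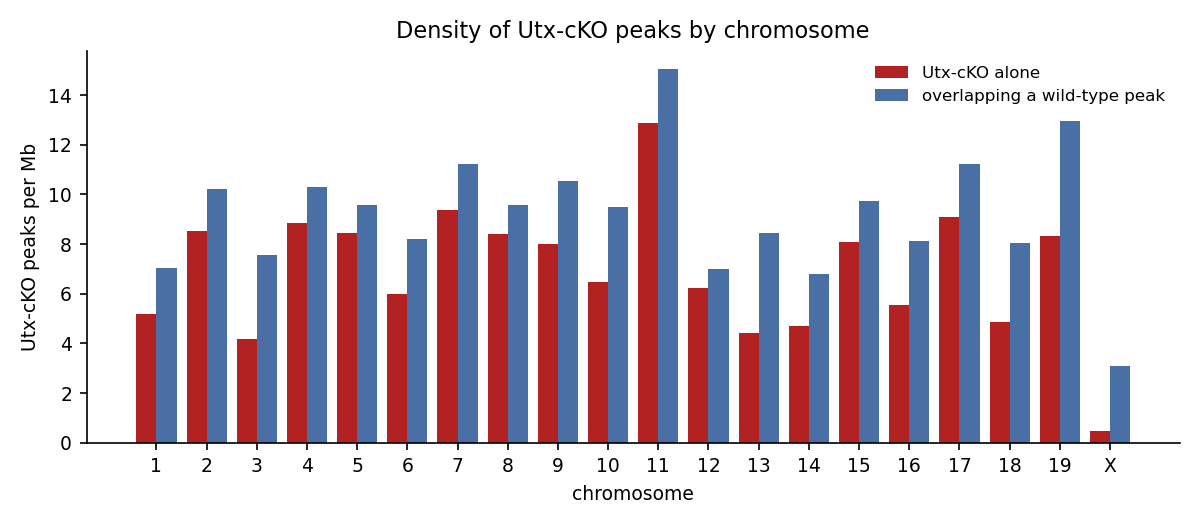
Utx-cKO peaks per Mb on each chromosome, for peaks in Utx-cKO alone and peaks overlapping a wild-type peak. Members range from 4.18 to 12.9 per Mb on the autosomes and stand at 0.463 per Mb on X.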

How the data were processed

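The 4 deposited peak lists, 1 per genotype, were compared. Bowtie2, HOMER 4.10 and deepTools 2.4.1 are named in the submitters' processing notes, with no build. Broad peaks came from MACS 2.1.2, run by the authors on each genotype's ChIP against its own input, per the file headers, with q and broad thresholds of 0.05, 1 duplicate fragment kept and the larger library scaled to the smaller. Pileup is the authors' coverage signal at a peak. The authors' −log10 p and −log10 q compare a peak with its input background, and their fold enrichment is the ratio of the pileup to that background. Each ChIP library was larger than its input, yet the lowest recovered backgrounds were close to the full ChIP depth (4.12 against 4.10 in Utx-cKO). How the scaling entered the deposited values is therefore not known. Peak length is as deposited. Because thresholds depend on depth, a weak region can miss a list without any difference in the mark.

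Overlap meant 1 bp or more. Genes came from RefSeq GRCm38.p6 without exons, and strand from the RefSeq promoter table. The build was checked by shifting: wild-type peaks marked 13639 genes as placed, and 4837 and 4790 when moved 20 kb either way. Position used peak centres, and a gene counted as marked when a peak's edge lay within 2 kb of an end. Background was (pileup + 1)/fold enrichment − 1. Chromosome length was the last end among peaks and genes. Wilson intervals at 95% cover counting error only. No test was made, with 1 library per genotype. Interval steps were tested on 600 simulated peaks and returned 100% right.

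Named genes were the 12 strongest members at gene ends, the 8 longest, the 6 largest chains, up to 4 genes per list and up to 2 per family by fold enrichment; genes with most members, and the starts and microRNAs whose sequences are shown, were chosen after their values were seen. The members, 16 gene lists and 50 families were chosen with earlier results of these data known, and the symbol patterns for ribosomal and histone genes were corrected after seeing their members. A few genes and 1 family taken by this rule are not reported here. Alternatives are listed with their effects in the closing section. Intervals were handled in Python 3.11.15 with pandas 2.3.3 and numpy 2.4.6, rank correlations came from scipy 1.17.1, and plots from matplotlib 3.10.9.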

Additional observations from a re-analysis of the deposited data

How the results depend on the processing

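Values were recomputed under those of 16 settings that bear on them, with a count taken as stable within 1.5 times and a share or median within its interval; 60 of 102 recomputed main values moved. Of 81 other values, 41 stayed and 40 moved. Autosomes only moved none. The cause of the moves was not tested. No paired analysis was possible because each genotype has 1 ChIP library and the titles carry no replicate numbers.

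With Utx-cKO peaks at q of 0.001 or less there were 2666 members with a median length of 471 bp; 12.2% were at gene ends, 43.6% within 10 kb of a wild-type peak and 9.08% in chains, 420 genes and 4 lineage factors had 1 at an end, and members were 3.48% of X-linked peaks. At a fold enrichment of 4 or more there were 38 with a median of 454 bp; 15.8% were at gene ends, 26.3% within 10 kb and 0% in chains, with 8 genes, 0 lineage factors and 0.235% of X-linked peaks. With as many Utx-cKO peaks as wild type, 3704 were members, with a median of 480.5 bp; 11.6% were at gene ends, 43.8% within 10 kb and 12.9% in chains, with 578 genes, 4 lineage factors and 3.76% of X-linked peaks. With the other lists held to q of 0.001 there were 27184, with a median of 609 bp; 53.9% were within 10 kb and 56.0% in chains, with 3607 genes and 20.6% of X-linked peaks. After merging Utx-cKO peaks within 3 kb there were 11580; 8.91% were at gene ends, 31.8% within 10 kb and 23.4% in chains, with 1371 genes. Above the lowest local background, a setting chosen after seeing the data, there were 8681 with a median of 577 bp; 9.13% were at gene ends and 26.0% in chains, with 1071 genes and 2 lineage factors. Of all Utx-cKO peaks, members were 10.4% at q of 0.001 and 13.2% with as many peaks as wild type. They were 55.0% with the other lists held to q of 0.001, so X was lower in these 3 settings. At a fold enrichment of 4 or more they were 0.263%, nearly the same as on X.

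Smaller moves came from the overlap rule and the lists. An overlap of 50% gave 47.0% within 10 kb and 45.8% in chains, and counting peaks within 1 kb as shared gave 44.1% and 43.7%. With the Ezh2-Cko list left aside the median length was 568 bp, 11.4% were at gene ends and 51.9% in chains. Members were then 16.3% of X-linked and 45.0% of all Utx-cKO peaks. With the Jmjd3-Cko list left aside the median was 536 bp and 46.6% were in chains, and with the wild-type list left aside 50.3% were within 10 kb and 46.0% in chains. A gene-end window of 1 kb gave 6.11% at gene ends, 1503 genes and 8 lineage factors, and 1 of 5 kb gave 25.9% and 4908 genes. Chain gaps of 3 and 25 kb put 19.9% and 67.4% in chains.

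Most members lie near the calling threshold: 85.0% had a fold enrichment under 3, and a region just under the threshold in another list counts as absent there. Replicates of the same genotypes were not analysed here, so the number of members describes these 8 libraries.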
